A study of Mus musculus with 2 samples.

Results

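The nuclear genes of respiratory complexes II, III and V were examined in the embryonic heart ventricle of wild-type (WT) mice and of mice without Fendrr, a long non-coding RNA gene. Members were all rows of the deposited expression table whose symbol begins with Sdh, Uqcr or Atp5, together with Cyc1, Cycs and Atpif1. This gave 34 of 23276 rows, and all 34 averaged 1 FPKM or more over the libraries, as did 11349 genes in all. FPKM is a level per transcript length and per sequenced library. The 34 comprised 28 subunits, 2 assembly factors of complex II, the electron carrier cytochrome c and 3 genes grouped here as accessory to complex V.

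Both groups were ventricles of embryonic day 12.5 embryos on a mixed C57BL/6 and 129SV background, made by tetraploid complementation, so that embryonic stem cells gave rise to the embryo itself. The WT group is labelled wild type with no engineered allele named, and the KO group derived from stem cells with both alleles of Fendrr knocked out by homologous recombination. How many stem cell clones were used per genotype is not given in the sources used here. RNA of 4 pooled ventricles per genotype gave 1 library of ribosomal RNA-depleted total RNA. The libraries were sequenced on separate runs with different base calling, so that genotype, pool and run cannot be told apart. With 1 library per genotype there is no replicate error and no test, so a value called higher or lower is so between these libraries only.

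The labels could not be checked on the targeted gene, since the row that carries an older symbol of Fendrr, 1110050K14Rik, is listed at 0 for WT and KO alike. The tissue label was checked on 18 cardiomyocyte markers, all of which were above 0, with a lowest value of 12.0 FPKM in KO and a highest of 9478 FPKM. Absolute depth is unknown. The steps between low values put the KO library at 1.26 times the WT depth, provided that FPKM was scaled to the total of mapped fragments.

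The respiratory chain of the inner mitochondrial membrane passes electrons from fuels to oxygen and pumps protons, and ATP synthase lets the protons flow back to make ATP. Complex II, succinate dehydrogenase, is also an enzyme of the tricarboxylic acid cycle and hands its electrons to ubiquinone. Complex III, the cytochrome bc1 complex, passes them from ubiquinol to cytochrome c. Complex V is ATP synthase, a rotary enzyme with a catalytic F1 head, a ring of c subunits in the membrane and a stalk that holds the head in place. Heart muscle depends on this pathway, and its mitochondria mature during fetal and early postnatal life. Mitochondrial DNA encodes cytochrome b of complex III and a pair of subunits of complex V. The other subunits of these complexes are encoded in the nucleus. No row was found under 16 symbols of mitochondrially encoded genes, so these genes were not analysed here.

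Most members were lower in the KO library by a modest amount. Their median log2 ratio, computed as log2((KO + 1)/(WT + 1)) in FPKM, was -0.35, against -0.11 for all 11349 genes, a difference of -0.24. The ratio of 28 of the 34 members lay below the all-gene median. That of 29 members was below 0, as was that of 7605 of the 11349 genes. Abundant genes lay below that median more often than others: of the 1080 genes averaging 50 FPKM or more, 60.1% did. These include 28 of the 34 members, of which 23 lay below. The members summed to 8861 FPKM in WT against 7708 in KO, a drop of 13.0%, while the total over all genes was 8.79% lower in KO.

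Few members were far apart. Atp5k was the 1 member at least 2-fold higher in KO, a limit passed by 0.467% of all genes. No member was at least 2-fold lower (0.388% of all genes). At 1.5-fold, 4 members were lower (3.6% of all genes): Atp5e, Uqcrc1, Sdhb and Cyc1. All 4 average 50 FPKM or more, a class in which 5.37% of genes were that much lower. The 1.5-fold limit in the other direction was passed by Atp5k alone (1.54% of all genes). Under each of 4 other scalings of the libraries, which remove the shift of all genes, Atp5e remained as the 1 member at least 1.5-fold lower.

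**Figure D1:**
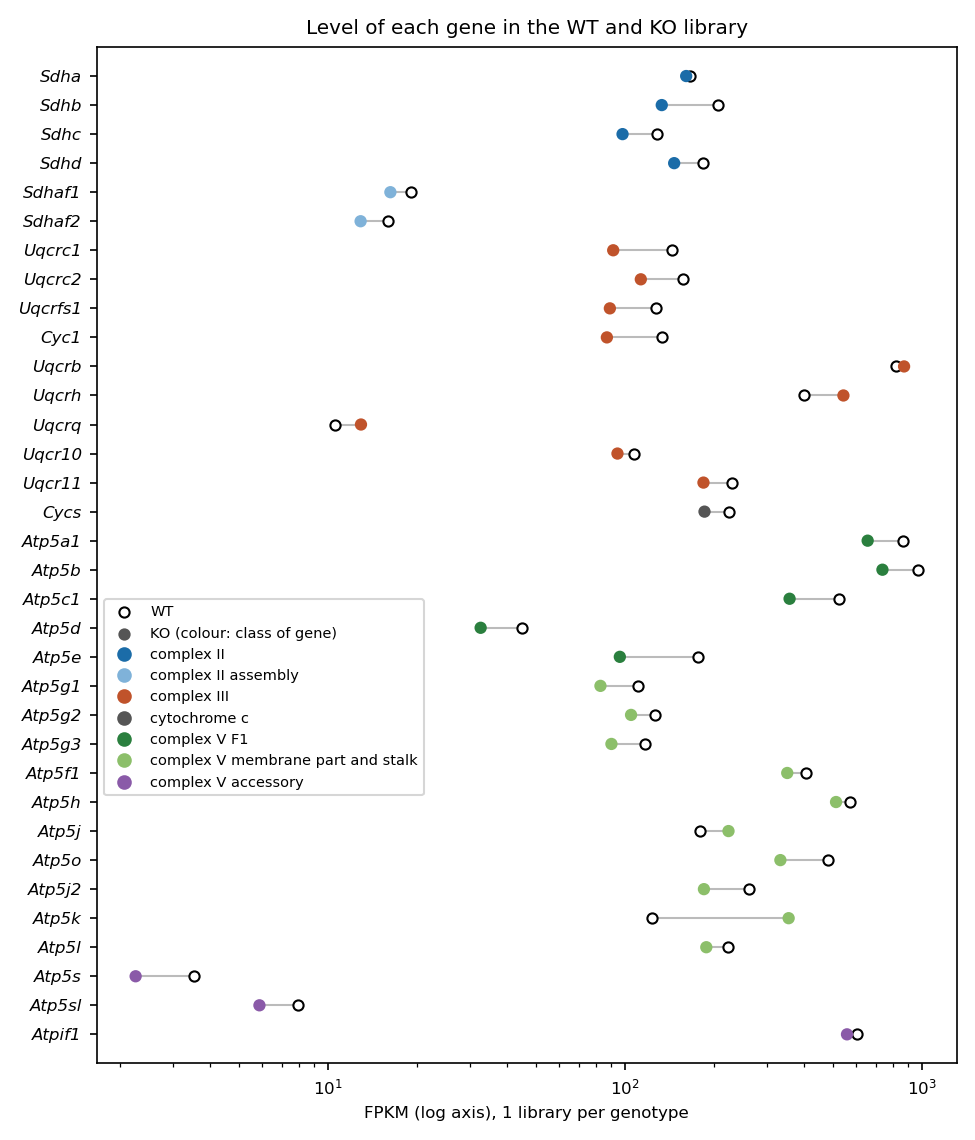
FPKM of each of the 34 genes in the WT library (open circles) and the KO library (filled circles, coloured by class), on a log axis, with 1 library per genotype and therefore no error bars. Most filled circles lie left of the open ones, while Atp5k moves right from 124 to 355 FPKM.

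**Figure D2:**
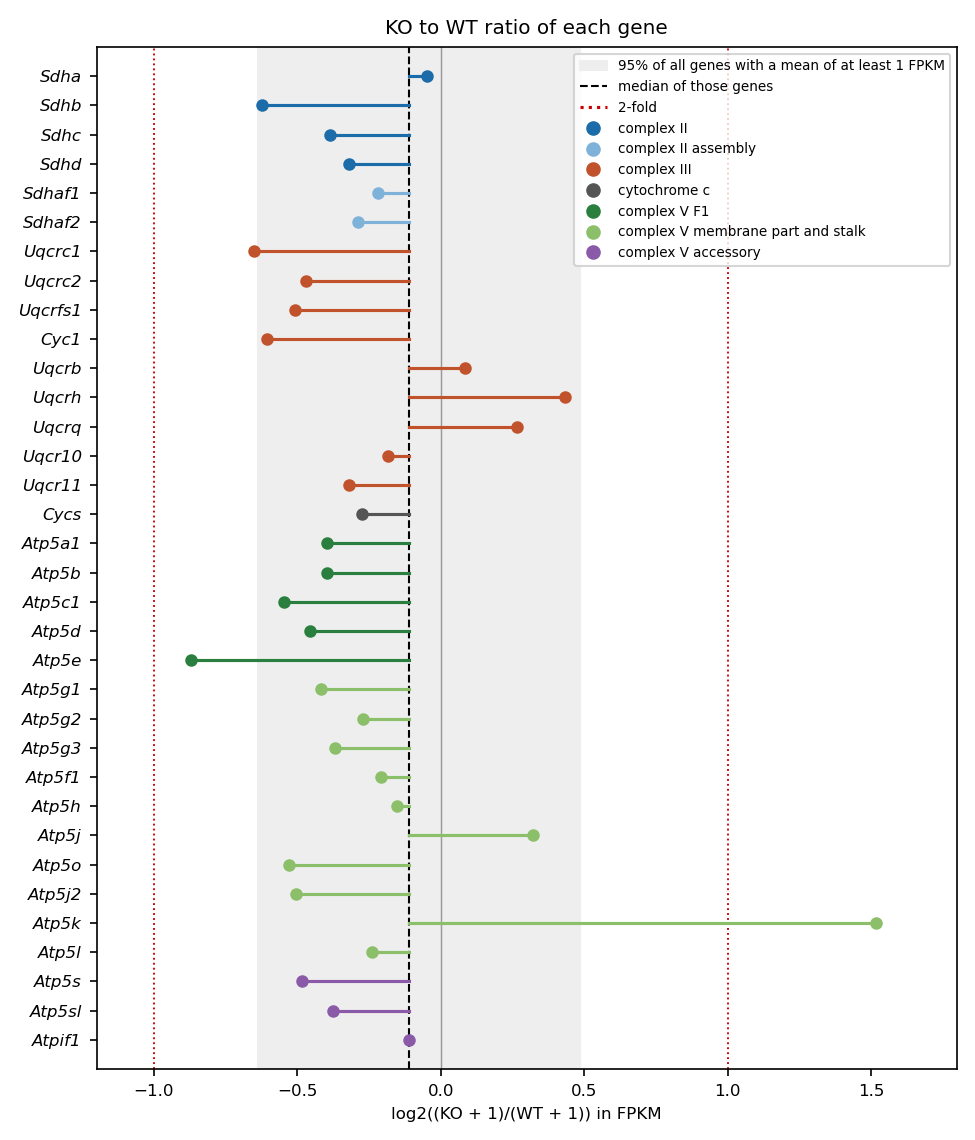
Log2 ratio of KO to WT for each of the 34 genes, drawn from the median of all genes (-0.11, dashed), with the central 95% of all genes from -0.64 to 0.49 shaded and 2-fold limits dotted. Atp5k lies beyond the upper limit at 1.52, and Atp5e, at -0.87, and Uqcrc1, at -0.65, lie below the shaded range.

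The 4 subunits of complex II were at similar levels per transcript length, from 129 to 205 FPKM in WT and from 98.1 to 161 FPKM in KO. Sdhb, the iron-sulfur subunit that carries electrons through the complex, was at 205 FPKM in WT against 133 in KO, a log2 ratio of -0.62. The anchors that fix the enzyme in the membrane and bind ubiquinone were lower by less: Sdhc was at 129 FPKM in WT against 98.1 in KO (log2 ratio -0.39), and Sdhd at 183 and 146 FPKM (-0.32). Sdha, the flavoprotein that oxidises succinate, had near-equal values of 166 FPKM in WT against 161 in KO. Its log2 ratio of -0.05 became positive under each of the 4 other scalings, up to 0.14. The level of Sdha relative to Sdhb was 0.809 in WT and 1.21 in KO, so that the order of these partners differed between the libraries. Summed over the 4 subunits, complex II was at 683 FPKM in WT against 538 in KO.

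The 2 assembly factors were expressed far below the subunits they serve. Sdhaf1, which helps to insert the iron-sulfur clusters of Sdhb, was at 19.0 FPKM in WT against 16.2 in KO. Sdhaf2, which helps to attach the flavin to Sdha, was at 15.9 and 12.9 FPKM. Both log2 ratios, -0.22 and -0.29, were below the all-gene median and nearer to it than those of Sdhb, Sdhc and Sdhd.

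Complex III was split. Its 4 large and catalytic subunits were all lower in KO, with log2 ratios from -0.65 to -0.47 and a summed level of 560 FPKM in WT against 380 in KO. Uqcrc1, a core protein on the matrix side, was at 144 FPKM in WT against 91.3 in KO (-0.65), and its partner Uqcrc2 at 157 and 113 FPKM (-0.47). Cyc1, the cytochrome c1 that passes electrons to cytochrome c, was at 133 FPKM in WT against 86.9 in KO (-0.61). Uqcrfs1, the Rieske iron-sulfur protein, was at 127 and 88.9 FPKM (-0.51). These 4 genes thus kept close to one another in level in either library, from 127 to 157 FPKM in WT and from 86.9 to 113 FPKM in KO.

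The 5 small subunits of complex III, which carry no redox centre, did not share that shift as a group, with a summed level of 1569 FPKM in WT against 1704 in KO. Uqcrh, the hinge protein at the cytochrome c1 contact, was at 402 FPKM in WT against 544 in KO (log2 ratio 0.43). Uqcrq, a subunit that contacts cytochrome b, was at 10.6 FPKM in WT against 12.9 in KO (0.27), and Uqcrb, which binds near the ubiquinone site, at 819 and 870 FPKM (0.09). Uqcr10 and Uqcr11, small membrane-spanning subunits, were lower: Uqcr10 was at 107 and 94.3 FPKM (-0.18), and Uqcr11 at 230 and 184 FPKM (-0.32). The levels of the small subunits were far apart: that of Uqcrb was 77.6 times that of Uqcrq in WT and 67.3 times in KO. Uqcrb has 3 near-identical pseudogene copies in the annotation, so that its level is uncertain. The sum over all 9 subunits, 2129 FPKM in WT against 2084 in KO, does not show this division, since the lower values of the large subunits were offset mainly by Uqcrh. The sum was lower in KO by a log2 ratio of -0.03 as deposited, and was higher under each of the 4 other scalings. The division into large and small subunits was made after the values were seen. It coincides with transcript length, which was 1363 to 1896 nt for the large subunits and 434 to 535 nt for the small ones. Subunit class and transcript length therefore cannot be told apart here.

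Cycs, the somatic cytochrome c that shuttles electrons from complex III to complex IV, was at 224 FPKM in WT against 185 in KO, a log2 ratio of -0.28. Its transcript has 4 near-identical copies in the annotation, none of which had a row in the table, so that its level is uncertain.

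All 5 genes of the F1 head of ATP synthase were lower in KO, under each scaling, and their summed level was 2577 FPKM in WT against 1878 in KO. Atp5a1 and Atp5b encode the alpha and beta subunits that form the catalytic ring. Atp5a1 was at 864 FPKM in WT against 656 in KO, and Atp5b at 968 and 735 FPKM, with log2 ratios of -0.40 for both. The level of Atp5a1 was 0.893 times that of Atp5b in WT and 0.892 times in KO, so that the pair kept its proportion. Atp5c1, the gamma subunit that turns inside the ring, was at 523 FPKM in WT against 358 in KO (-0.55).

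The remaining F1 subunits, delta and epsilon, form the foot of the rotor. Atp5d (delta) was the least abundant F1 gene, at 45.1 FPKM in WT against 32.7 in KO (-0.46). Atp5e (epsilon) had the lowest log2 ratio of all 34 members, -0.87, with 177 FPKM in WT against 96.1 in KO. Of the 1080 genes averaging 50 FPKM or more, 17 had a lower ratio than Atp5e.

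The membrane part and the stalk had the widest range of ratios. The c subunits, which form the rotating ring, are encoded by 3 genes whose mature proteins are the same, and all 3 were lower in KO. Atp5g1 was at 111 FPKM in WT against 82.7 in KO (-0.42), Atp5g3 at 117 and 90.0 FPKM (-0.37), and Atp5g2 at 127 and 104.8 FPKM (-0.27). Each gave about an equal part of the c subunit transcripts, and the parts hardly differed between the libraries: that of Atp5g1 was 31.3% in WT and 29.8% in KO, and that of Atp5g2 was 35.8% and 37.8%. Atp5g1 and Atp5g2 have near-identical pseudogene copies in the annotation, so that these parts are uncertain.

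In the stalk, Atp5o, the OSCP subunit that joins stalk and head, was at 481 FPKM in WT against 333 in KO (-0.53). Atp5f1, subunit b, was at 406 and 352 FPKM (-0.21). Atp5h, subunit d, was at 570 FPKM in WT against 513 in KO (-0.15), and its ratio was 0 with quantile normalization. Atp5j, coupling factor F6, was higher in KO, at 178 FPKM in WT against 223 in KO (0.32), and stayed above 0 under every scaling.

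The small membrane subunits e, f and g, which help ATP synthase to form dimers, went different ways. Atp5j2, subunit f, was at 262 FPKM in WT against 184 in KO (-0.50), and Atp5l, subunit g, at 222 and 188 FPKM (-0.24). Atp5k, subunit e, was at 124 FPKM in WT against 355 in KO, a ratio of 2.88 and a log2 ratio of 1.52. Its transcript is short and has a near-identical pseudogene copy, so that its level is uncertain. The level of Atp5k was 0.556 times that of its neighbour in the complex, Atp5l, in WT and 1.89 times in KO. Atp5l has 9 near-identical copies, so that its level is uncertain as well. Atp5k moved from the 25th most abundant of the 34 members to the 8th. Among the 1080 genes averaging 50 FPKM or more, Rn4.5s, a small non-coding RNA at 0.834 FPKM in WT against 174.9 in KO, was the 1 gene with a higher ratio. Rn4.5s was named after its value was seen. Without Atp5k, the other 14 subunits of complex V summed to 5052 FPKM in WT against 3949 in KO, 21.8% lower. With it, the 15 were 16.8% lower.

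The 3 genes grouped as accessory to complex V were at very different levels. Atpif1, the inhibitor that blocks the enzyme from running backwards, was among the most abundant members, at 603 FPKM in WT against 559 in KO. Its log2 ratio of -0.11 equalled the median of all genes to 2 decimals, and its sign changed with the scaling. Atp5s, known as factor B, was at 3.55 FPKM in WT against 2.25 in KO (-0.48), and Atp5sl, named for its likeness to Atp5s, at 7.93 and 5.88 FPKM (-0.38). These were the members with the lowest levels. The annotation used here lists Atp5sl as Dmac2, so it is counted with complex V by its older symbol only. RefSeq, used for the promoters below, lists Atp5s as Dmac2l, so that its choice as a member also rests on an older symbol.

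The promoters of Atp5e and Atp5k, the members at either end of the range, and of Uqcrc1 and Uqcrh, the furthest apart within complex III, are shown to compare their sequence. Each runs 5′ to 3′ along the gene, from 250 bases before the annotated start to 50 after it, from RefSeq on GRCm38.p6, with the motifs searched in capitals.
Atp5e, chr2:174464052-174464351, minus strand: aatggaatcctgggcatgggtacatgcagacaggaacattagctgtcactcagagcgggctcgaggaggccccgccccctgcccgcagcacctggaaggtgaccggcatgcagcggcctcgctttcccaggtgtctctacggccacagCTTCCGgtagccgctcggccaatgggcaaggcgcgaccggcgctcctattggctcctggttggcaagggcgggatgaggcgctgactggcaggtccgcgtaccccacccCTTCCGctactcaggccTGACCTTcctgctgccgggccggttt
Atp5k, chr5:108434350-108434649, minus strand: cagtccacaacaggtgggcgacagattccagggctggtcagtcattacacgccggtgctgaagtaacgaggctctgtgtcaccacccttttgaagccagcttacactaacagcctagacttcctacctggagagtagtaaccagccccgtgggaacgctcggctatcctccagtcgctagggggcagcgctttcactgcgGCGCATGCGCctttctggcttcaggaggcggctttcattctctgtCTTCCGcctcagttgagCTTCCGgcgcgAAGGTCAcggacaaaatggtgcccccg
Uqcrc1, chr9:108936398-108936697, plus strand: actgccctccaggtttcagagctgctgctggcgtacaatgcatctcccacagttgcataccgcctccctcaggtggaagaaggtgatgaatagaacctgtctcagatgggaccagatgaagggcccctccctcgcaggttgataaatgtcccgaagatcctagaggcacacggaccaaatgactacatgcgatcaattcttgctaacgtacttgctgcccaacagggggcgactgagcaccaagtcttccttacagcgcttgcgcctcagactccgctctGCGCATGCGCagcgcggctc
Uqcrh, chr4:116075021-116075320, minus strand: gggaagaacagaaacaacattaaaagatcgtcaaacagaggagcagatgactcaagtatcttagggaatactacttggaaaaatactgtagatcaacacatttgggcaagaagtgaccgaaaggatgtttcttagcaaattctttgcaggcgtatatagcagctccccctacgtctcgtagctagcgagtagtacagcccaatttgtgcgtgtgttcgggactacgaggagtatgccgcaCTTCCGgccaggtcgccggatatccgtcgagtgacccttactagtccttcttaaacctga
The 4 motifs, searched on both strands, were that of NRF1 (a palindrome, the capitals of Uqcrc1), CGGAAG for ETS factors such as GABPA, ATGGCGG for YY1 and AAGGTCA, the half-site of the ERR nuclear receptors. These factors are known regulators of nuclear respiratory genes.

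The highest and the lowest member shared motifs: Atp5e and Atp5k both held the ETS motif at 2 places and the ERR half-site at 1. Atp5k and Uqcrc1 held the NRF1 motif, and Uqcrh held the ETS motif only. Promoters were matched for 28 of the 34 members, and those of Atp5a1, Cyc1, Sdhc, Uqcrb, Uqcrc2 and Uqcrq were not. The ERR half-site occurred in 6 of 28 members (21.4%) and in 3.65% of 9033 genes that averaged 1 FPKM or more and had a promoter in the table. The corresponding shares were 53.6% and 36.7% for ETS, 10.7% and 2.40% for NRF1, and 17.9% and 10.1% for YY1. A gene with several promoters was counted once. Over all 32851 promoters of that length, the shares were 4.72% for ERR, 16.9% for ETS, 0.971% for NRF1 and 4.05% for YY1. The 6 members with an ERR half-site, Atp5e, Atp5g3, Atp5k, Atp5l, Atpif1 and Sdhd, had ratios across the whole range of members, from -0.87 to 1.52. The 15 members with the ETS motif spanned the same range, at a median of -0.27, and the 13 without it ran from -0.65 to -0.05, at a median of -0.40. In Sdhaf2 a YY1 match overlapped an ETS match.

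Members of every length class from 600 nt up lay mostly below the all-gene median. From 600 to below 1000 nt, 5 of 6 members did, at a median log2 ratio of -0.41, where 51.7% of all genes of that length did. At 2000 nt and more, 5 of 6 did, at a median of -0.28 (47.8% of all genes). All 12 members with a median transcript length from 1000 to below 2000 nt did, at a median of -0.48 (55.9% of all genes). Among the 348 genes of that length that average 50 FPKM or more, 10 of these members included, the median was -0.21 and 64.4% lay below. Of the 10 members under 600 nt, 6 lay below, Atp5e (421 nt) among them. The 4 above were Atp5k (321.5 nt), Uqcrh (474.5 nt), Uqcrq (504 nt) and Uqcrb (535 nt). Without Atp5k, which falls in a shorter class, 6 of 9 members from 400 to below 600 nt lay below, where 55.4% of all genes of that length did. Across the 34 members, Spearman's rho of length and log2 ratio was -0.28, and across 11267 genes it was 0.10. Both are descriptions across genes that share the same libraries.

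Short transcripts of all genes also varied more between these libraries. The central 95% of log2 ratios ran from -1.05 to 0.94 for the 195 genes from 400 to below 600 nt, and from -0.54 to 0.42 for the 7524 genes of at least 2000 nt. For the 41 genes from 200 to below 400 nt, a class that includes Atp5k, it ran from -1.08 to 1.01. A filter on read length was possibly applied to the WT run alone, per the labels, and its part in these values was not tested.

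**Figure D3:**
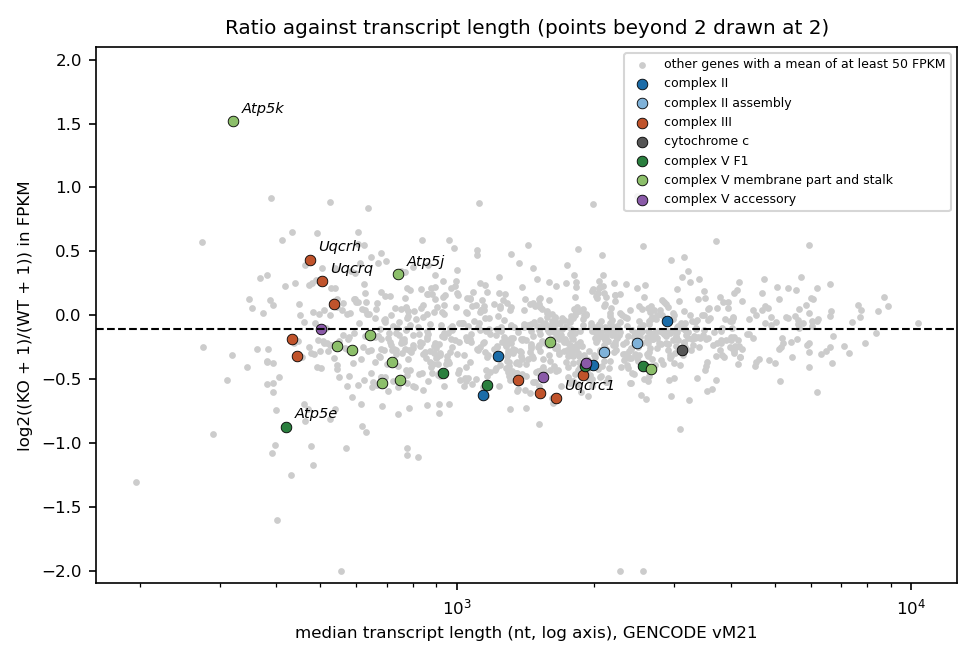
Log2 ratio of KO to WT against median transcript length on a log axis for the 34 genes (coloured by class) and for other genes averaging 50 FPKM or more (grey), with the median of all genes dashed. Points scatter more widely at short lengths, where Atp5k (1.52) and Atp5e (-0.87) lie.

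Near-identical copies make some levels uncertain. In the annotation, 9 members had another gene that matched at 95% identity or more over at least 200 nt: Atp5f1, Atp5g1, Atp5g2, Atp5h, Atp5k, Atp5l, Atp5o, Cycs and Uqcrb. Atp5l and Cycs had the most, with 9 and 4 copies. None of the copies had a row in the deposited table except Donson, which lies on the same strand as Atp5o and shares sequence with it, at 8.75 FPKM in WT against 5.71 in KO. The copy of Atp5k, the pseudogene Atp5k-ps2, matched over 210 nt at 95.7% identity. The 25 members without such a copy had a median log2 ratio of -0.39, with 21 below the all-gene median, and the 9 with one had a median of -0.24, with 7 below. Genes on the opposite strand with a row overlap Atp5a1 (Haus1), Atp5f1 (Wdr77), Atp5j (Gabpa), Sdhaf2 (Cpsf7), Uqcrc2 (Pdzd9) and Uqcrb (Gm10767). The library marks strand, but whether counting used it is not given in the sources used here. Haus1 was at 28.5 FPKM in WT against 15.7 in KO, Gabpa at 26.5 and 26.3 FPKM, and the other 4 were lower than these in either library.

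The other nuclear genes of oxidative phosphorylation gave a background for these values. Of 36 complex I subunits, 28 lay below the all-gene median, with a median log2 ratio of -0.24, where the members had -0.35. None was 2-fold apart, and at 1.5-fold Ndufb6, Ndufb8 and Ndufv1 were lower and Ndufa3 higher. Of 17 complex IV subunits, 6 lay below, with a median of -0.05, and Cox4i2, an isoform of subunit 4, was at least 2-fold higher (3.89 FPKM in WT against 11.3 in KO). Cox8b, the muscle isoform of subunit 8, was at least 1.5-fold higher (17.1 and 32.3 FPKM). Whether these complexes differ was not tested, since members of a complex are not replicates. The subunits of ATP synthase under other symbols were on both sides: Usmg5 was at 493 FPKM in WT against 410 in KO, and 2010107E04Rik at 323 and 391 FPKM.

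Mitochondrial genes outside the chain were also mostly lower. Of 17 other mitochondrial proteins (channels, import, chaperones and carriers), 16 lay below the all-gene median, with a median of -0.32. Slc25a4, the ADP/ATP carrier that exports the ATP made by complex V, was at 2289 FPKM in WT against 1805 in KO. Of 14 tricarboxylic acid cycle enzymes, 10 lay below, with a median of -0.16. Idh2, the most abundant of them, was at 759 FPKM in WT against 589 in KO. No gene of either list was 1.5-fold apart. Most genes of both lists average 50 FPKM or more, a class in which 60.1% of genes lay below, at a median of -0.17.

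The assembly factors and regulators were at low levels. Of 10 assembly factors of complexes II, III and V with a row, Sdhaf1 and Sdhaf2 included, 8 lay below the all-gene median. Acn9, an assembly factor of complex II, was the 1 at least 1.5-fold lower (8.75 FPKM in WT against 4.42 in KO). The factors that bring F1 together, Atpaf1 and Atpaf2, were at 16.5 and 22.8 FPKM in WT and at 11.6 and 15.0 FPKM in KO, while Tmem70 was at 20.6 and 23.0 FPKM. Of 14 regulators of nuclear respiratory genes, 7 lay below, with a median of -0.10. Gabpa, the most abundant, was at 26.5 FPKM in WT against 26.3 in KO, and Yy1 at 19.2 and 18.1 FPKM. Ppargc1a, a coactivator of mitochondrial biogenesis, was at 9.81 and 10.7 FPKM, and Esrra, an ERR receptor, at 13.4 and 9.22 FPKM. Tfb1m, a mitochondrial ribosomal RNA methyltransferase, was the 1 regulator at least 1.5-fold apart (8.88 FPKM in WT against 5.20 in KO). Ppargc1a and Esrra were chosen after their values were seen.

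**Figure D4:**
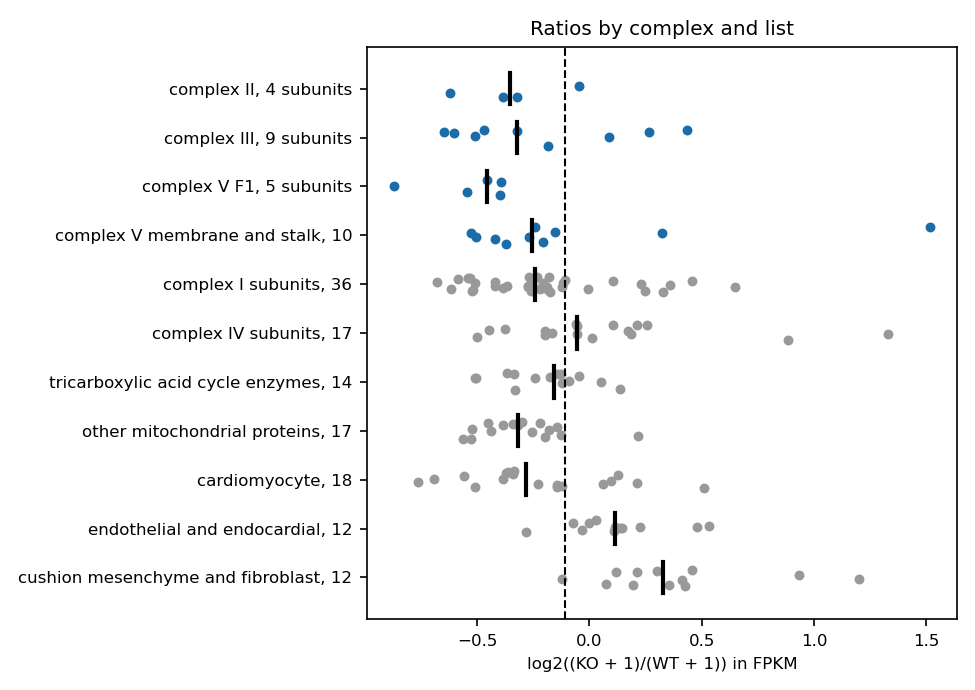
Log2 ratio of KO to WT of each gene (points, spread vertically for visibility) by complex and by list, with each list's median as a bar and the median of all genes dashed. Of the groups drawn, the F1 genes have the lowest median (-0.46) and the cushion mesenchyme and fibroblast markers the highest (0.33), with complex IV near all genes (-0.05).

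Marker genes of the ventricle's cell types, and of other tissues, also differed between the libraries. Of 18 cardiomyocyte markers, 13 lay below the all-gene median, with a median log2 ratio of -0.28 and a summed level of 29966 FPKM in WT against 28432 in KO. The 5 above were Tnnt2, Myh6, Myh7, Actc1 and Myl2. The KO to WT ratio of the cardiomyocyte sums was 0.949, against 0.912 for the sums over all genes. Myl2 alone gave 9103 FPKM of the cardiomyocyte sum in WT and 9478 FPKM of that in KO. Of 12 cushion mesenchyme and fibroblast markers, 11 lay above, with sums of 934 and 1195 FPKM. Endothelial and endocardial markers lay above in 11 of 12 cases, with sums of 289.5 and 301 FPKM. Eln, which encodes elastin, was the 1 fibroblast marker at least 2-fold apart (12.9 FPKM in WT against 31.0 in KO). The 12 erythroid markers with a row summed to 5133 and 5567 FPKM. Of the 10 that averaged 1 FPKM or more, 7 were lower in KO, as were 7605 of all 11349 genes. These 10 markers had a median log2 ratio of -0.25. The higher sum was carried mainly by Hba-a1 (1583 and 2122 FPKM), while Hba-a2, a near-identical globin gene whose reads may not be told apart from it, had 139 FPKM in WT but is listed at 0 for KO. The 8 epicardial markers summed to 102 and 105 FPKM, and the 8 leukocyte ones to 55.8 and 84.6 FPKM, with Ctss (4.51 and 11.8 FPKM) and C1qb (1.58 and 4.41 FPKM) at least 2-fold higher. Of 9 liver and yolk sac markers, 6 were listed at 0 in at least 1 library, with sums of 0.685 and 22.2 FPKM, and Afp alone, alpha-fetoprotein, was at 0.110 and 16.6 FPKM. The 4 lung markers summed to 0.0675 and 0.0269 FPKM, and the 8 skeletal muscle markers to 209 and 257 FPKM. The skeletal muscle sums were carried by Acta1 (114 and 122 FPKM), Ckm (45.8 and 84.6 FPKM) and Tnni2 (45.7 and 46.3 FPKM). Myf5 and Myf6 were listed at 0 in both libraries, Myod1 was at 0 and 0.0328 FPKM, and Myog at 0.103 and 0.123 FPKM. The part of cell makeup in the lower values of the respiratory genes was not tested, and in bulk tissue fewer cells of a type and less RNA per cell cannot be told apart.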

How the data were processed

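RNA of pooled ventricles was sequenced in 1 WT and 1 KO library, with reads of 100 bases from 1 end. The deposited values are FPKM made by the authors on build mm9, per the submitters' processing notes, which list Cufflinks 2.0.2, Bowtie2 2.0.2 and TopHat2 2.0.6. The sources used here give neither annotation nor options. The values are scaled to length and mapped fragments, so totals are not depths. Relative depth came from 2213 genes averaging below 0.3 FPKM. Their KO/WT quotients were divided by 0.796, and 69.2% then matched a quotient of whole numbers no larger than 10 to 0.1%.

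Log2 ratios used a pseudocount of 1 FPKM, which understates differences of low genes, and a minimum mean of 1 FPKM. No test was possible. The members and gene lists were chosen with earlier results of these data known. Every member is named. Genes of the other lists were named if 2-fold apart, or up to 3 per list by level. Genes named at 1.5-fold, and others, were named after their values were seen.

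Lengths are medians over protein-coding transcripts of GENCODE vM21, and copies were found with BLAST 2.17.0. Both are on GRCm38, so no coordinates but those of the promoters are given. Alternatives changed the pseudocount (0.1 or 5), the minimum mean (none or 5), the scaling (4 ways) and the sets of members or background genes. Only the scalings and the calling of 2-fold changes were tried on simulated data, with planted changes larger than 2-fold. Smaller shifts, such as that of the members, were not covered. Computations used Python 3.11.15, numpy 2.4.6, pandas 2.3.3 and matplotlib 3.10.9.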

Additional observations from a re-analysis of the deposited data

How the results depend on the processing

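No paired analysis was possible because WT and KO are 1 library apiece, which also means that neither can be left out. Values were called moved here when they shifted by 0.1 or more on the log2 scale, or by over 1.5 times for counts. The pseudocounts and filters moved no count and no median of the members that far, with 5 and 3 members at least 1.5-fold lower at pseudocounts of 0.1 and 5. The scalings did, by removing the shift of all genes. The count of members at least 1.5-fold lower was 1 with each of the 4 scalings, against 4, and the count at least 1.5-fold higher was 2 with quantile normalization, against 1, the other being Uqcrh. The median log2 ratio of the members was -0.24 under median centring, -0.21 under scaling to the upper quartile, -0.23 under a trimmed mean and -0.18 under quantile normalization, against -0.35. In the same order of scalings, the log2 ratio of the summed FPKM was -0.23, -0.21, -0.23 and -0.16 for complex II (as deposited -0.34), 0.079, 0.11, 0.083 and 0.12 for complex III (-0.03) and -0.16, -0.13, -0.15 and -0.11 for complex V (-0.27). Between 25 and 28 of 34 members lay below the all-gene median under the pseudocounts, scalings and no filter, and 26 of 33 at a minimum mean of 5, which leaves out Atp5s. It was 22 of 28 for subunits only and, chosen after seeing the data, 22 of 24 for transcripts of at least 600 nt. Relative to all genes the median of the members was -0.17 when set against genes averaging 50 FPKM or more, also chosen after seeing the data, and -0.22 against genes in the members' range of levels. Of 271 single-gene values under alternatives, 135 moved, and the sign changed with the scaling for Sdha and Atpif1. Absolute depth is unknown, so no counting interval can be given, and depth limits the low members Atp5s, Atp5sl and Uqcrq most.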
